A study of Mus musculus with 24 samples.

Results

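Genes of fatty acid oxidation, together with established targets of the PPAR nuclear receptors, were examined in the pancreas of mice kept on a high-fat diet. The set was a list of 37 genes matched to array probes by gene symbol, current or older, and a gene counted as measured where 4 or more of the 24 arrays gave a probe a detection p under 0.05. Of the 37 genes, 34 had an annotated probe (63 probes), and 24 genes with 41 probes met that criterion, out of 15328 such probes among 45281 on the array. All mice were male C57BL/6J, an inbred strain that readily becomes obese on such diets, bought at 3 weeks of age, and all groups, the control included, had received a diet with 60% fat for 12 weeks when pancreatic RNA was taken.

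The 24 arrays formed 6 groups of 4. The control group drank water. A second group received AFFB, a blackberry and blueberry beverage that was fermented and freed of alcohol, with an anthocyanin dose of 8.4 mg per kg per day. PAE, the phenolic extract of AFFB, was given in 3 groups as 0.1X, 1X and 3X, with anthocyanin doses of 1.1, 9.0 and 18.9 mg per kg per day. Sitagliptin, which blocks the incretin-cleaving protease DPP-IV, was given to the last group at 150 mg per L in the water bottle. The titles call the highest dose 3X and the treatment protocol 2X, and it is called 3X here. Each group began with more mice than were put on arrays. The labels give each array a number of its own but do not state that each array is a separate mouse. The p-values therefore rest on the spread among these 24 samples, and how much of it is technical is not known. Whole pancreas was used, in which fewer cells of a type and less RNA per cell cannot be told apart.

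Fatty acids enter mitochondria as carnitine esters through the carnitine palmitoyltransferases and the carnitine-acylcarnitine translocase Slc25a20. There they are shortened by repeated rounds of dehydrogenation, hydration, second dehydrogenation and thiolysis, and the electron transfer flavoproteins pass the electrons of the first step on to the respiratory chain. Peroxisomes run a parallel pathway for very long and dicarboxylic chains, and the fatty acid-activated receptor PPAR alpha induces many genes of both pathways in liver, muscle and heart. Exocrine acinar cells make up most of the pancreas, and all 12 annotated acinar markers were detected on all 24 arrays, with array means of 13.71 to 13.97 on the log2 scale.

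Promoter windows from RefSeq (build GRCm38.p6), reaching from 250 bases before to 50 bases from the transcription start, were matched for 20 of the 24 measured genes, and 3 are shown because the results below return to these genes. Capitals in the Hadhb window (chr5:30155003-30155302, plus strand) mark the 228 bases it shares with the window of Hadha. Those genes encode the partner subunits of the mitochondrial trifunctional protein, and their starts lie 273 bases apart on opposite strands. Capitals in the Acadm window (chr3:153944594-153944893, minus strand) mark TGACCT, the reverse complement of the nuclear receptor half-site AGGTCA, at positions -249 to -244 from the start, and capitals in the Acadvl window (chr11:70015379-70015678, minus strand) mark AGGTCA at positions -87 to -82.
Hadhb: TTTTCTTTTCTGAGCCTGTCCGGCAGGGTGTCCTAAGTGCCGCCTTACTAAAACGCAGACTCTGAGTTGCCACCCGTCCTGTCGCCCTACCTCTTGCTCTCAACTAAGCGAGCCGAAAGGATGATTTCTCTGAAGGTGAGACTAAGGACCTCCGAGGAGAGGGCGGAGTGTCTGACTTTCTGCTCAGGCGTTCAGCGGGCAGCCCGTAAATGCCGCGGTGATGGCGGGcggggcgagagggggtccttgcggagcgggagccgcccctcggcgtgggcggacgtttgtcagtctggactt
Acadm: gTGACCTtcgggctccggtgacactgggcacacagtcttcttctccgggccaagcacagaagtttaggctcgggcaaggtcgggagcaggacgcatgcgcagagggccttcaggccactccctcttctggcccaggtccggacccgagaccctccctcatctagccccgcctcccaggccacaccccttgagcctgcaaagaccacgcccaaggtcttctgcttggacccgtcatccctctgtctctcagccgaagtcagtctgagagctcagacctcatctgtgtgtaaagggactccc
Acadvl: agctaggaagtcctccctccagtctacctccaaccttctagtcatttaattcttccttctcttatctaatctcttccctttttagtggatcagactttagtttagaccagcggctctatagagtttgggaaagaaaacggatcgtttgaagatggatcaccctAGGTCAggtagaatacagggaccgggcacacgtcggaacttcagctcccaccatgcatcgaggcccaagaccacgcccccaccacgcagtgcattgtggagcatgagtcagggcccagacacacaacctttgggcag
The half-site AGGTCA on either strand was present in 6 of the 22 windows of these 20 genes. Those windows belonged to 5 genes (Acadm, Acadvl, Creb3l3, Echs1 and Plin5). It was present in 16.3% of all 32851 windows examined, which did not cover every chromosome. The direct repeat AGGTCANAGGTCA, which contains the half-site and is the form that PPAR-RXR dimers are known to bind, was found in none of the members' windows and in 0.0396% of all windows. The looser form AGGNCANAGGNCA was found in none of the members' windows and in 0.381% of all windows. A match of letters is a description of the sequence and not a binding site.

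Many oxidation genes were measured in this tissue and many classical PPAR targets were not. A probe detected on all 24 arrays was found for 14 genes: Slc25a20, Cpt2, Crat, Acadvl, Acadm, Hadhb, Echs1, Acaa2, Eci1, Eci2, Etfa, Etfb, Acaa1a and Pex11a. No probe of Cpt1a, the liver-type outer carnitine palmitoyltransferase, of Ucp3, Fabp3 or Vnn1 was detected on any array. Probes of Cpt1b, Hadha, Hadh, Bdh1 and Plin2 were detected on at most 2 arrays, and that of Acat1 on 3. Acsl1, Ucp2 and Cyp4a10 had no probe under those symbols in the annotation table used here. Of 10 listed PPAR targets outside beta-oxidation, 4 were measured and all were dim: Pdk4 on 7 arrays, Cyp4a14 on 6, Creb3l3 on 5 and Plin5 on 4. A gene so dim can enter the set only through the arrays on which it is high, so counts over the measured genes are descriptions.

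No member probe passed an adjusted p of 0.05 in any comparison with limma (moderated statistics, Benjamini-Hochberg adjustment over 15328 probes). The background share of probes passing was 0% for AFFB, 0% for PAE 0.1X, 0.00652% for PAE 1X, 0.0457% for PAE 3X and 0% for sitagliptin, each against water. In the F test over the 5 treatments it was 0.104% of probes, and 0 of the 41 members passed. The lowest adjusted p among members was 0.138, for Hadhb in that F test. At an unadjusted p under 0.05 the F test held 6 of the 41 member probes (14.6%), against 4.31% of all probes, and these were single probes of Hadhb, Slc25a20, Eci2, Ehhadh, Acadm and Cpt2. The members were chosen with earlier results of these data known, so shares of members set beside those of all probes are descriptions. All differences below are on the log2 scale of normalized signal and are given as values, since none passed.

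**Figure D1:**
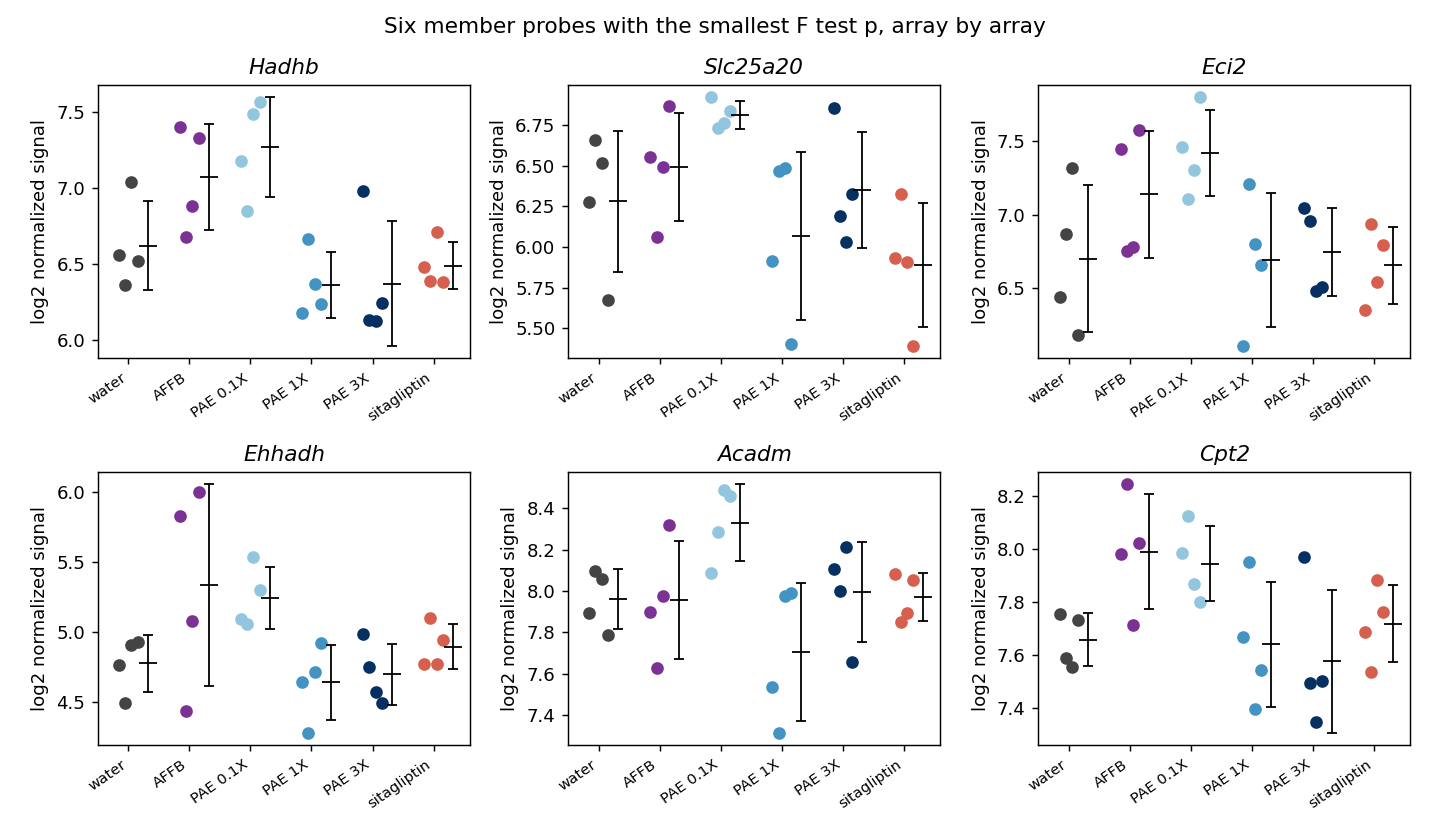
Log2 normalized signal of the 6 member probes with the smallest F test p, for each of 24 arrays in 6 groups; points are arrays, and the bar beside them is the group mean with 1 SD (n = 4). The PAE 0.1X arrays form a tight, high group for Slc25a20 (6.73 to 6.92), while AFFB arrays are spread widely for Ehhadh (4.44 to 6.00).

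Hadhb, the beta subunit that carries the thiolase of the trifunctional protein, stood highest in PAE 0.1X and AFFB (probe ILMN_1230454). Its 4 water arrays read 6.56, 6.37, 7.04 and 6.52, the PAE 0.1X arrays 7.18, 6.85, 7.49 and 7.57, and the AFFB arrays 7.40, 6.68, 6.88 and 7.33. Each group overlapped with water only through water array 3, at 7.04. The PAE 1X arrays read 6.18, 6.67, 6.37 and 6.24, the sitagliptin arrays 6.48, 6.39, 6.71 and 6.38, and the PAE 3X arrays 6.98, 6.14, 6.13 and 6.25. A single PAE 3X array, number 1, reached the level of the PAE 0.1X and AFFB arrays. The difference from water was 0.65 (SE 0.20, limma adjusted p = 0.9998) in PAE 0.1X and 0.45 in AFFB, while PAE 1X, PAE 3X and sitagliptin stood at -0.26, -0.25 and -0.13. Hadha, whose promoter window overlaps that of Hadhb, had a probe detected only on PAE 0.1X arrays 1 and 2.

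PAE 0.1X differed from water by a median of 0.26 over the 24 member genes, with 19 higher and 5 lower, while the median over all 9164 named genes was -0.0037 and 49.1% of them were higher. The members lay between -0.22 for Acads and 0.72 for Eci2. Unadjusted p under 0.05 was reached by 7 of 41 member probes (17.1%), all of them higher, against 1.98% of all probes higher at that threshold. Of these, the Creb3l3 probe was detected on no water array and met the detection criterion only through treated arrays, so the count is a description. The groups did not overlap for 4 probes that were higher and 1 that was lower, against 1.39% and 1.6% of all probes. The count of 7 was 4 without PAE 0.1X array 1 or array 3, and 4 under median scaling or without the arrays of high clock score described below. It was 12 in a fit of these 2 groups only. Every array of the group had a member median above the water mean, from 0.21 to 0.32, compared with -0.12 to 0.14 for the water arrays themselves. These comparisons with water all share the same 4 water arrays.

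Members of the carnitine shuttle and the acyl-CoA dehydrogenases were among those 7 probes. Slc25a20, which exchanges acylcarnitine for carnitine across the inner membrane, read 6.28, 6.66, 6.51 and 5.67 on water and 6.92, 6.73, 6.76 and 6.84 on PAE 0.1X arrays. All PAE 0.1X arrays were above all water arrays, and the difference was 0.53 (SE 0.24, adjusted p = 0.9998 with limma). Acadvl, the dehydrogenase for very long chains, read 7.04, 7.32, 7.19 and 6.54 on water and 7.47, 7.43, 7.61 and 7.52 on PAE 0.1X arrays (probe ILMN_2956932), again without overlap. Its difference was 0.48 (SE 0.15, adjusted p = 0.9998 with limma), and the second Acadvl probe gave 0.28. Acadm, the medium-chain dehydrogenase, read 7.89, 8.10, 8.06 and 7.79 on water and 8.09, 8.29, 8.49 and 8.46 on PAE 0.1X arrays, where only array 1 lay within the water range. The short-chain dehydrogenase Acads went the other way at -0.22, and its 4 PAE 0.1X arrays were all below the water arrays.

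Eci2, Creb3l3 and Cpt2 completed that group. Eci2, an isomerase that moves double bonds of unsaturated acyl-CoA, read 6.44, 6.87, 7.31 and 6.18 on water and 7.46, 7.11, 7.31 and 7.80 on PAE 0.1X arrays, overlapping through water array 3. Its difference of 0.72 (SE 0.25, adjusted p = 0.9998 with limma) was the largest of the 24 genes in this comparison. Creb3l3, a membrane-bound transcription factor best known from liver, was detected on 2 PAE 0.1X arrays, which read 5.02 and 5.17, and on none of the water arrays, so that its fold had only a bound of at least 1.08. Cpt2, the inner carnitine palmitoyltransferase, had 3 probes with differences of 0.29, 0.35 and 0.18. The probe at an unadjusted p under 0.05, with the difference of 0.35, read 7.49, 7.37, 7.56 and 7.08 on PAE 0.1X and 7.11, 6.79, 7.10 and 7.08 on water arrays, overlapping through array 4. The brightest probe did not reach that p, and its PAE 0.1X arrays read 7.98, 8.12, 7.87 and 7.80, above the water arrays at 7.75, 7.59, 7.55 and 7.73.

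AFFB gave a similar member median of 0.22 over a background of 0.01 for all genes, with 21 of 24 genes higher (52.5% of all genes), but its arrays were split. The member medians of AFFB arrays 1 and 4 were 0.33 and 0.42 above the water mean, and those of arrays 2 and 3 were 0.02 and 0.04, within the range of the water arrays. Without array 4 the member median of the group was 0.11. Unadjusted p under 0.05 was reached by 7 of 41 probes (17.1%), all higher, against 2.73% of all probes higher. That count was 2 without array 1, without array 4 or without water array 2, and 4 without water array 1 or water array 4; it was also 2 under median scaling. Non-overlap with water was seen for 2 probes that were higher, one each of Cpt2 and Etfb, against 1.68% of all probes.

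By the brightest probe of each gene, the 4 peroxisomal genes had a median AFFB difference of 0.36 and the 3 measured genes of the later mitochondrial steps 0.40. The 0.40 was the value of Acaa2, and its other kept probes did not share it. Their AFFB and water means were 5.65 and 6.15, 5.78 and 5.75, and 5.41 and 5.79. Ehhadh, the peroxisomal bifunctional enzyme and a classical PPAR alpha target, read 5.83, 4.44, 5.08 and 6.00 on AFFB and 4.77, 4.50, 4.91 and 4.93 on water arrays. Its AFFB arrays 1 and 4 were the highest of all 24, array 2 was below every water array, and the difference was 0.56 (SE 0.23, adjusted p = 0.919 with limma). On PAE 0.1X arrays it read 5.09, 5.06, 5.54 and 5.30, all above the water arrays. Pex11a, a membrane protein that promotes peroxisome division, read 6.47, 6.01, 5.50 and 6.48 on AFFB and 5.64, 5.78, 5.09 and 5.06 on water arrays with probe ILMN_2452883, a difference of 0.72 (SE 0.26, adjusted p = 0.919 with limma). AFFB array 3 lay within the water range. The 3 other Pex11a probes gave 0.26 (the brightest), 0.09 and 0.24. Acaa1a, a peroxisomal thiolase, was 0.29 higher in AFFB, and its near-identical copy Acaa1b was 0.42 higher, but Acaa1b was detected on 2 AFFB arrays and 1 water array. Signal of these copies may be mixed, since the probe sequences were not used here.

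The mitochondrial members with unadjusted p under 0.05 in AFFB were Cpt2, Acadvl, Acadl and Hadhb. The brightest Cpt2 probe read 7.98, 8.24, 7.71 and 8.02, with only array 3 inside the water range, and differed by 0.33 (SE 0.15, adjusted p = 0.919 with limma). Acadl, the long-chain dehydrogenase, read 5.26, 4.82, 4.62 and 4.80 against 4.46, 4.35, 4.63 and 4.38 on water, a difference of 0.42 (SE 0.19, adjusted p = 0.919 with limma). That probe was detected on 3 AFFB arrays and 1 water array, and the second kept Acadl probe differed by 0.02, so the 2 probes did not give the same picture.

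**Figure D2:**
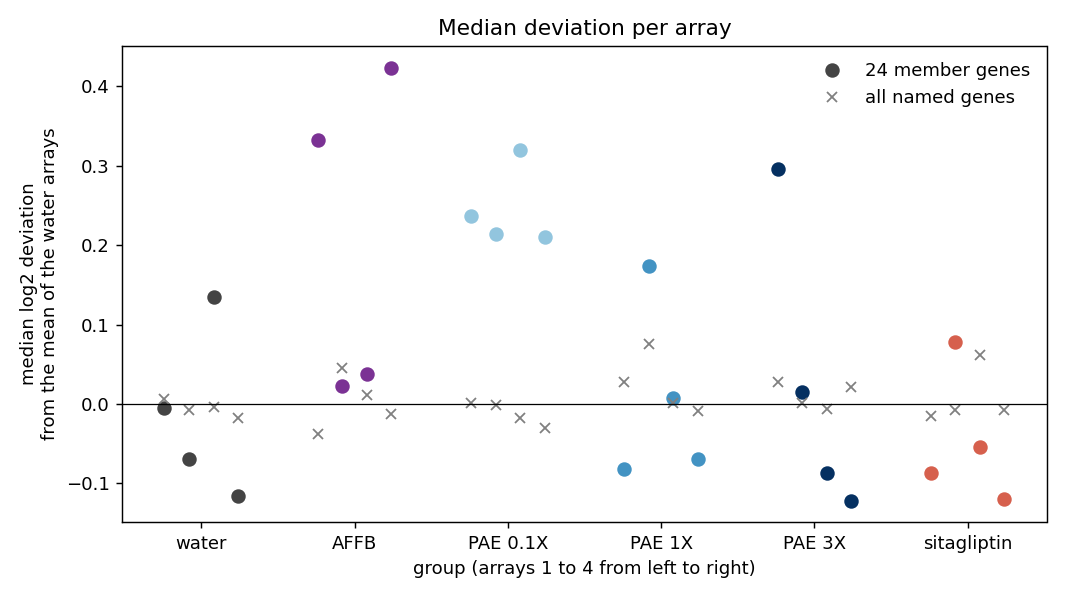
Median log2 deviation from the mean of the water arrays, over 24 member genes (filled circles) and over 9164 named genes (crosses), for each array, with arrays 1 to 4 of each group from left to right. All PAE 0.1X arrays lie between 0.21 and 0.32, AFFB arrays 1 and 4 and PAE 3X array 1 lie above 0.29, and the crosses stay close to 0.

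PAE 1X had a member median of -0.013 against 0.03 for all genes, with 11 genes higher and 13 lower. Under median scaling in place of quantile normalization the member median was 0.19 with 16 genes higher, and that of all genes 0.17, so relative to all genes it was 0.02. Unadjusted p under 0.05 was reached by 2 probes that were higher (4.88%, against 3.44% of all probes) and 3 that were lower (7.32%, against 3.07%). The 2 higher ones, of Decr1 and Creb3l3, were detected on no water array. They met the detection criterion only through treated arrays, so their count is a description. The 5 probes were 0 without PAE 1X array 2, 2 without water array 2 and 1 without water array 4, and 2 with array weights. The member median was 0.01 to 0.03 without water array 2 or 3 or PAE 1X array 3 or 4. The 3 lower ones all belonged to Etfa, the alpha subunit of electron transfer flavoprotein. The brightest read 9.33, 8.01, 9.91 and 9.99 on PAE 1X and 9.97, 10.31, 9.89 and 10.26 on water arrays, a difference of -0.80 (SE 0.35, adjusted p = 0.740 with limma). PAE 1X array 2 was the lowest of all 24 and arrays 3 and 4 lay within the water range. The other Etfa probes gave -0.62 (SE 0.25, adjusted p = 0.696) and -0.62 (SE 0.26, adjusted p = 0.727), and none of the 3 stayed at an unadjusted p under 0.05 without array 2, where the differences were -0.37, -0.42 and -0.42. PAE 1X array 2 also stood apart from all others on the first principal component of all probes, at 56.1, with the next array, AFFB 2, at 38.8; its part in the result was not tested further.

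Members with small differences from water in every group included Crat, the carnitine acetyltransferase, at -0.11 to 0.12, and Echs1, the short-chain enoyl-CoA hydratase, at 0.09 to 0.21, each by its brightest probe. The partner subunit Etfb and the acceptor Etfdh differed less in PAE 1X, at -0.18 and -0.20 for their brightest probes, and their second kept probes went the other way, at 0.09 and 0.19. Decr1, the reductase for polyunsaturated acyl-CoA, was detected on all 4 PAE 1X arrays and on no water array. Its PAE 1X arrays read 4.64, 5.28, 4.67 and 5.13 and its water arrays 4.65, 4.41, 4.54 and 4.64, overlapping by a narrow margin, and its fold was at least 1.21 (adjusted p = 0.692 with limma). Creb3l3 was detected on 2 PAE 1X arrays and was at least 1.05-fold higher.

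Neither the highest extract dose nor sitagliptin had a member at an unadjusted p under 0.05 with all arrays in the fit. Leaving out single arrays gave up to 2 such probes in PAE 3X, without its array 3, and up to 3 in sitagliptin, without its array 2. Among all probes, 5.03% reached that p in PAE 3X and 2.74% did so with sitagliptin. No member was free of overlap with water in these groups, against 2.53% (higher) and 2.15% (lower) of all probes for PAE 3X, and 1.22% and 0.953% for sitagliptin. The member median was 0.05 in PAE 3X with 16 of 24 genes higher, and the all-gene median was 0.02. Array 1 was the highest, with a member median of 0.30 against -0.12 to 0.02 for the others, and without it 10 genes were higher and the median was -0.04. Without water array 4 the median was -0.02. Median scaling gave a PAE 3X member median of 0.33 with 22 genes higher and an all-gene median of 0.20, and 6 member probes then reached an unadjusted p under 0.05. The 4 members of smallest p were Acadl at 0.36 (SE 0.19), Acadvl at 0.29 (SE 0.15), Pex11a at 0.41 (SE 0.26) and Acaa1a at 0.29 (SE 0.19), all with an adjusted p of 0.999 in limma. Their PAE 3X arrays read 5.05, 4.62, 4.55 and 5.06 for Acadl, 7.37, 7.27, 7.20 and 7.42 for Acadvl, 6.07, 5.86, 5.79 and 5.51 for Pex11a, and 9.96, 9.48, 9.29 and 9.77 for Acaa1a. Acadvl was at 0.13 without water array 4, and Acaa1a at 0.18 without PAE 3X array 1. Each of these ranges overlapped with the water arrays, which read 9.41, 9.49, 9.15 and 9.27 for Acaa1a. Other kept probes of these genes differed less or went the other way. For Pex11a their PAE 3X and water means were 7.94 and 8.05 (the brightest), 7.69 and 7.90, and 4.77 and 4.71. The second kept probe had means of 4.71 and 4.63 for Acadl, and of 7.02 and 6.84 for Acadvl.

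In sitagliptin the member median was -0.06 against 0.01 for all genes, with 10 genes higher and 14 lower. Without water array 3 it was 0.02, without water array 4 -0.10, and without sitagliptin array 1, 3 or 4 -0.02. Median scaling gave 0.04 with 13 higher, against 0.06 for all genes. The lowest member was Slc25a20, with arrays at 5.93, 6.32, 5.90 and 5.39 and a difference of -0.39 (SE 0.24), which was -0.23 without sitagliptin array 4 and -0.60 without water array 4. Acadvl was 0.28 higher (SE 0.15), with arrays at 7.59, 7.35, 7.26 and 7.02, and 0.12 higher without water array 4. Its second probe went the other way, with means of 6.78 on sitagliptin and 6.84 on water arrays. Eci1, an isomerase like Eci2, read 7.75, 8.05, 7.88 and 7.47 on sitagliptin and 7.91 to 8.23 on water arrays, overlapping through array 2, a difference of -0.29 (SE 0.16). Of the 4 probes of Acaa2, the mitochondrial 3-ketoacyl-CoA thiolase, one read 5.85, 6.05, 4.50 and 5.79 on sitagliptin and 5.85, 6.52, 6.06 and 6.14 on water arrays, a difference of -0.60 (SE 0.33) that was -0.25 without sitagliptin array 3. The 3 others gave 0.18, -0.47 and -0.25, so the probes differed in sign. The adjusted p of each of these differences was 0.9996 in limma.

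**Figure D3:**
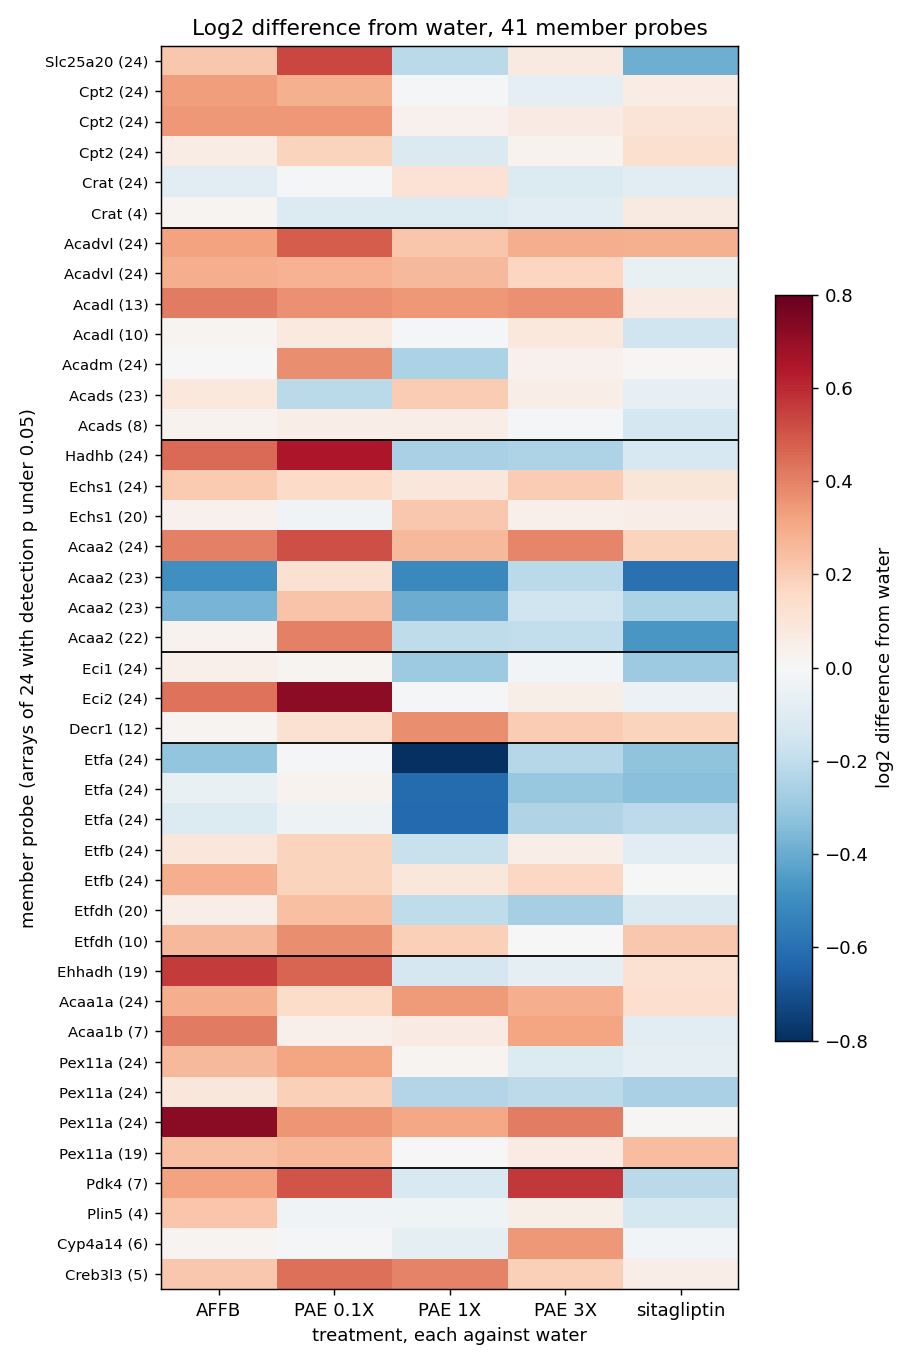
Log2 difference of each treatment group's mean (n = 4) from water for the 41 member probes, in the order of pathway roles, with lines between roles and the number of the 24 arrays on which the probe was detected in brackets. AFFB and PAE 0.1X columns are mostly above 0, and the 3 Etfa probes are lowest in PAE 1X, at -0.80, -0.62 and -0.62; no value passed an adjusted p of 0.05.

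The design also sets the extract doses against each other, and these comparisons share the PAE 0.1X arrays. Against PAE 1X, the lowest dose had a member median of 0.28 with 19 of 24 genes higher, while all genes had -0.03 with 43.01% higher. No member passed the adjusted threshold, and neither did any of the 15328 probes (0%). Unadjusted p under 0.05 was reached by 12 of 41 member probes (29.3%), all higher, against 2.26% of all probes. They belonged to 9 genes: Slc25a20, Cpt2, Acadm, Hadhb, Eci2, Etfa, Etfb, Etfdh and Ehhadh, with 3 probes of Etfa and 2 of Cpt2. Non-overlap was seen for 6 probes (14.6%), all higher, against 1.08% of all probes. This count of 12 was 3 under median scaling and 5 without PAE 0.1X array 3. Median scaling also brought the member median to 0.01 with 15 genes higher and that of all genes to -0.16, a gap of 0.18 in place of 0.31. Without PAE 1X array 4 the member median was 0.17.

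Hadhb differed by 0.91 between PAE 0.1X and PAE 1X (SE 0.20, 95% interval 0.49 to 1.33, unadjusted p = 0.000163, adjusted p = 0.417 with limma), and all 4 PAE 0.1X arrays were above all PAE 1X arrays. Acadm read 7.53, 7.31, 7.98 and 7.99 on PAE 1X arrays, all below the PAE 0.1X arrays, and differed by 0.63 (SE 0.17, adjusted p = 0.582 with limma). Slc25a20 read 5.91, 6.47, 6.49 and 5.40 on PAE 1X arrays, also without overlap, and differed by 0.75 (SE 0.24, adjusted p = 0.868 with limma). Eci2 read 6.11, 7.21, 6.80 and 6.66 there, overlapped through array 2, and differed by 0.73 (SE 0.25, adjusted p = 0.900 with limma). Among the members, a translocase, a dehydrogenase, a thiolase subunit and an isomerase had the smallest p-values. The list was made of genes of this pathway, so that they share it was set in advance. Acads at -0.42, Decr1 at -0.25 and Acaa1a at -0.20 were lower in PAE 0.1X. Pdk4, the kinase that inhibits pyruvate dehydrogenase, was detected on 3 PAE 0.1X arrays and no PAE 1X array, at least 1.31-fold higher.

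Against PAE 3X, PAE 0.1X had a member median of 0.13 with 16 genes higher and an all-gene median of -0.02. None of the members and none of all probes (0%) passed. Median scaling turned the member median to -0.12 with 9 genes higher, and that of all genes to -0.19, while without PAE 3X array 1 it was 0.20. At an unadjusted p under 0.05, 5 of 41 probes (12.2%) were higher, against 2.24% of all probes, and this count was 3 without PAE 3X array 4 and 1 under median scaling. Hadhb differed by 0.90 (SE 0.20, adjusted p = 0.284 with limma), and it overlapped through PAE 3X array 1 at 6.98. Without that array the difference was 1.10, with an adjusted p of 0.0490 in limma, and this was the only alternative under which a member passed. Eci2 read 7.05, 6.96, 6.48 and 6.50 on PAE 3X arrays, all below the PAE 0.1X arrays, and differed by 0.67 (SE 0.25, adjusted p = 0.802 with limma). Etfdh, which hands electrons to ubiquinone, read 4.96, 5.02, 5.40 and 5.44 on PAE 0.1X and 4.64, 4.95, 4.77 and 4.45 on PAE 3X arrays, with a difference of 0.50 (SE 0.20, adjusted p = 0.823 with limma). The second kept Etfdh probe differed by 0.38. Cpt2 differed by 0.37 (SE 0.15, adjusted p = 0.805 with limma) for its brightest probe, which read 7.97, 7.49, 7.35 and 7.50 on PAE 3X arrays and overlapped through array 1.

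**Figure D4:**
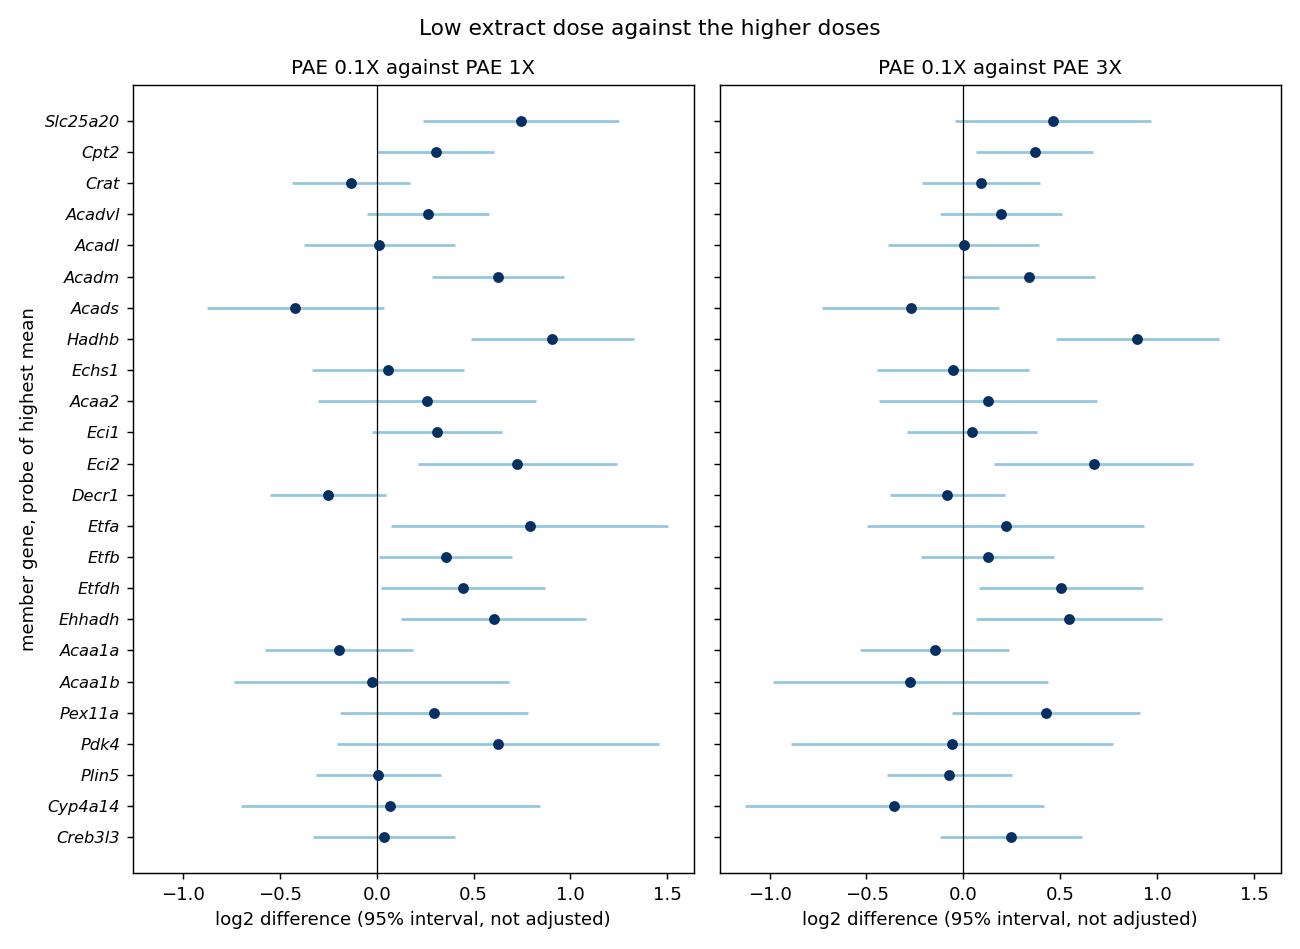
Log2 difference between PAE 0.1X and PAE 1X (left) and between PAE 0.1X and PAE 3X (right) for the 24 member genes, each by its kept probe of highest mean; points are differences of means (n = 4 each) and lines 95% intervals of the limma fit, not adjusted. Hadhb lies farthest to the right in both panels, at 0.91 and 0.90; no gene passed an adjusted p of 0.05.

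AFFB and PAE 1X had close but not equal anthocyanin doses, 8.4 and 9.0 mg per kg per day. The member median was 0.25 higher in AFFB, with 19 of 24 genes higher, against -0.02 for all genes. With median scaling it was 0.04 with 14 genes higher, against -0.15 for all genes, and without AFFB array 4 it was 0.11. No member passed, against 0.00652% of all probes. At an unadjusted p under 0.05, 4 of 41 probes were higher (9.76%, against 1.82%) and 1 was lower (2.44%, against 2.59%). These 5 became 13 without AFFB array 2, 8 without PAE 1X array 2 or 3, and 3 without AFFB array 4 or under median scaling. Hadhb had the smallest p, with all AFFB arrays above all PAE 1X arrays and a difference of 0.71 (SE 0.20, adjusted p = 0.708 with limma). Ehhadh read 4.65, 4.29, 4.72 and 4.92 on PAE 1X arrays and differed by 0.69 (SE 0.23, adjusted p = 0.925 with limma), with AFFB array 2 inside the PAE 1X range. The brightest Cpt2 probe read 7.67, 7.95, 7.40 and 7.54 on PAE 1X arrays and differed by 0.35 (SE 0.15, adjusted p = 0.9995 with limma). Decr1 was detected on no AFFB array and was at least 1.18-fold higher in PAE 1X.

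Other genes of the pathway were taken from lists of receptors, further enzymes, fatty acid handling and secreted targets. Of 65 listed genes, 58 had an annotated probe and 39 were measured, and none passed in any comparison. Among the receptors, Ppard was detected on all 24 arrays and differed from water by -0.11 to -0.34. Pparg was detected on 5 arrays, the coactivator Ppargc1a on 14, and no probe of Ppara was kept. The smallest adjusted p of these lists against water was that of Oxct1, in PAE 3X, and the lists' smallest against water in PAE 0.1X was that of Acot1 and Angptl4, both known PPAR targets. The lists were chosen with earlier results of these data known, so these ranks are descriptions. Acot1, an acyl-CoA thioesterase, read 5.44, 6.64, 6.85 and 4.56 on water, 8.97, 7.47, 8.94 and 9.43 on PAE 0.1X and 9.50, 6.93, 7.20 and 8.10 on AFFB arrays. Both groups lay wholly above water, by 2.83 (SE 0.61, adjusted p = 0.342 with limma) and 2.06 (SE 0.61, adjusted p = 0.919), while PAE 1X, PAE 3X and sitagliptin differed from water by -0.06, -0.36 and -0.45. A second Acot1 probe was detected on all 4 PAE 0.1X arrays, 2 AFFB arrays, 1 PAE 3X array and no other. Near-identical thioesterase genes may contribute to these probes.

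Angptl4, a secreted inhibitor of lipoprotein lipase, read 4.68, 5.44, 5.89 and 4.24 on water and 7.26, 6.64, 6.59 and 7.83 on PAE 0.1X arrays, without overlap, a difference of 2.01 (SE 0.40, adjusted p = 0.342 with limma). In AFFB it was 0.98 higher (SE 0.40, adjusted p = 0.919 with limma), with arrays at 6.78, 5.41, 5.52 and 6.46, so that arrays 1 and 4 were above and arrays 2 and 3 within the water range. Mlycd, the malonyl-CoA decarboxylase, was 0.47 higher in PAE 0.1X and 0.51 higher in AFFB. Oxct1, the enzyme that activates ketone bodies for oxidation, was lower in PAE 1X by -0.79 (SE 0.16, adjusted p = 0.120 with limma) and in PAE 3X by -0.75 (SE 0.16, adjusted p = 0.106), and in PAE 0.1X by -0.49. Its PAE 1X arrays read 7.06, 6.97, 7.11 and 7.60 and its PAE 3X arrays 7.44, 7.27, 7.44 and 6.77, all below the water arrays at 7.99, 7.82, 7.80 and 8.29. A second Oxct1 probe read 4.70 to 7.02 on PAE 1X and 7.21 to 7.70 on water arrays. On PAE 3X arrays this second probe read 6.54, 7.25, 7.32 and 5.78, with arrays 2 and 3 inside the water range.

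Of 12 annotated adipocyte markers, 7 were measured, namely Lpl on all 24 arrays, Adipoq on 10, Lep on 7, Pparg and Retn on 5 and Lipe and Car3 on 4, while Plin1, Cd36, Cidec, Fabp4 and Pck1 were not measured. Adipoq and Lep, both made by adipocytes, were highest on water array 3 (7.24 and 6.13) and PAE 1X array 1 (7.78 and 6.14). The mean of the 7 was 5.01 to 6.00 on water, 4.88 to 5.15 on AFFB and 4.87 to 5.45 on PAE 0.1X arrays, so neither group with the higher member medians exceeded the water range. None of 4 annotated brown adipocyte markers, Ucp1 included, was measured. Of 7 skeletal muscle markers 2 were measured, and Acta1, Ckm and Myh4 were not. Of 6 hepatocyte markers 4 were measured and Alb was not, with array means of 5.75 to 6.86 on water, 5.44 to 5.89 on AFFB and 5.50 to 6.05 on PAE 0.1X arrays. Islet means were 6.41 to 8.55 on water, 5.73 to 7.89 on AFFB and 6.22 to 7.80 on PAE 0.1X arrays. The AFFB arrays lay at 7.09 to 7.43 for duct markers (7.39 to 7.63 on water) and 4.99 to 5.89 for endothelial ones (5.65 to 5.85), and the lowest macrophage mean was 4.95 on AFFB and 5.31 on water arrays. They lay at 5.21 to 5.72 for B and plasma cell markers (5.57 to 6.49) and 7.96 to 9.03 for erythroid ones (7.75 to 8.46). The PAE 0.1X arrays lay at 7.18 to 7.59 for duct, 5.35 to 6.16 for endothelial and 5.13 to 5.45 for macrophage markers. Their B and plasma cell means were 5.41 to 6.61 and their erythroid means 8.02 to 8.89. Single markers, chosen after their values were seen and not tested, with unequal means on AFFB and water arrays were Cd74 (7.13 and 8.07), Lyz2 (6.00 and 6.89), Plvap (6.54 and 7.23), Muc1 (9.74 and 10.39) and Alas2 (5.36 and 4.66), and their part in the member differences was not tested. With the adipocyte mean as a covariate the member medians were 0.19 for AFFB and 0.26 for PAE 0.1X. A mean z score of 11 circadian clock genes, with the sign of Npas2, Bmal1, Clock and Cry1 turned, separated 5 arrays (water 4, PAE 1X 4, PAE 3X 2 and 3, sitagliptin 4), none of them AFFB or PAE 0.1X, and without these the member medians were 0.17 and 0.27. Without them 4 member probes in PAE 3X and 1 in sitagliptin reached an unadjusted p under 0.05, in place of 0.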

How the data were processed

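Pancreatic RNA was measured on Illumina single-colour arrays, per the labels' protocols. One deposited table held, per the file headers, for 24 arrays and 45281 probes a linear signal intensity with its detection p-value, neither background-corrected nor normalized. Another deposited table held log2 values, for which the submitters' processing notes name R 3.1.2 and limma 3.22.1. These deposited log2 values differed from those computed here by at most 0.00194 in 99% of cases. The sources used here do not say which chip held each array.

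The signals were passed through neqc (limma 3.58.1, R 4.3.3), with the background taken from the detection p-values, an offset of 16, quantile normalization and log2. Quantile normalization forces the same distribution on every array. The 15328 probes retained were those detected at p under 0.05 on 4 or more arrays, and symbols of the platform annotation were brought to current ones. Median signal per array was 81.3 to 98.7, and 10888 to 14060 probes per array were detected. Having only 4 arrays in a group limits precision: the median SE of a member's difference from water was 0.21.

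All arrays entered 1 limma fit of 6 group means without covariates, moderated with eBayes. Treatments were compared with water, AFFB with PAE 1X, and PAE 0.1X with PAE 1X and PAE 3X, and an F test covered the 5 treatments. Tests were two-sided, with Benjamini-Hochberg adjustment over all retained probes within each comparison. Where no array of a group detected a probe, the fold is a bound from the lowest detected signal, written as at least. A gene's value in medians came from its retained probe of highest mean. Full statistics were given for the 4 member probes of smallest p in each comparison and the 6 of smallest F test p. Genes outside the set were named where they had 1 of the 3 smallest p of the pathway lists in a comparison, or belonged to a short panel of PPAR genes. The members and lists were chosen with earlier results of these data known. No array pair was identical. The fit was tested on simulated data. Alternatives changed the background correction, normalization, probe filter, variance model, covariates or source of the log2 values (the deposited table), or left out single arrays.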

Additional observations from a re-analysis of the deposited data

Results flagged for a closer look

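Among 108 groups of 4 arrays of the member probes given with full statistics, 3 held an array far from its 3 others; chance alone sets apart about 5% of groups, so this number is no more than chance gives. Hadhb on PAE 3X array 1 read 6.98, with the other PAE 3X arrays at 6.13 to 6.25. Acadvl on PAE 1X array 3 read 7.58, with the others at 7.10 to 7.15. Acaa2, by probe ILMN_2704822, read 4.50 on sitagliptin array 3, with the others at 5.79 to 6.05.

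Of the 22 member probes that did not meet the detection criterion, those of 2 genes were detected on more than 1 array of a treated group and on no water array. Plin2, a lipid droplet coat protein, was detected on 2 PAE 1X arrays (4.61 and 4.71) and on no water array. Hadha was detected on 2 PAE 0.1X arrays (4.68 and 4.81) and on no water array. Neither was tested. Among 180 pairs of treatments, 0 had all arrays of one treatment above the water mean and all arrays of the other below it.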

How the results depend on the processing

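The count of members passing in each comparison stayed at 0 under every alternative, except that 1 member, Hadhb, passed without PAE 3X array 1 in PAE 0.1X against PAE 3X and in the F test, where the range over left-out arrays was 0 to 1. Of 1175 alternative values of single members, 1174 kept their direction and side of the threshold, 0 turned sign, and 1 (that of Hadhb) newly passed. These were the members of smallest p, none of which had passed, so this outcome was largely set in advance. Some alternatives also leave a difference unchanged by construction. Sizes did move: Cpt2 in PAE 0.1X against PAE 3X ranged from 0.04 to 0.50, and Decr1 in AFFB against PAE 1X from -0.44 to -0.10. Median scaling turned the sitagliptin member median from -0.06 to 0.04 and moved 5 others by more than the spread between replicates, to 0.19 in PAE 1X against water, 0.33 in PAE 3X against water, 0.037 in AFFB against PAE 1X, 0.0136 in PAE 0.1X against PAE 1X and -0.12 in PAE 0.1X against PAE 3X, and it moved the median of all genes in the same comparisons to 0.17, 0.20, -0.15, -0.16 and -0.19. Relative to all genes, the member median ranged from 0.10 to 0.22 in AFFB and from 0.13 to 0.31 in PAE 0.1X against water over the 12 settings. Without background correction the member median itself was 0.10 in AFFB against PAE 1X, where leaving out single arrays gave 0.11 to 0.31. The replicate block, with numbers that did not pair the samples (their deviations correlated with a median of 0.03, and 9 of 24 arrays were closest to their own number), left 0 members passing in each comparison. Over all probes in PAE 3X against water, 7 passed, 33 with array weights, 32 with the clock score as covariate, 16 with median scaling and 0 without the high-clock arrays. An F test with only the groups compared was not run. Dim probes such as those of Pdk4 and Creb3l3 limit what can be said of PPAR targets.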

Other observations

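Some dim members were high on single arrays. Acaa1b, a peroxisomal thiolase, read 6.22 on PAE 3X array 1 and 6.00 on AFFB array 4, and at most 5.04 on the others. Cyp4a14, a microsomal fatty acid omega-hydroxylase and classical PPAR alpha target, read 6.54 on PAE 3X array 1 and at most 5.33 elsewhere. On that array the hepatocyte markers Apoa1 and Cyp2e1 were detected. Apoa1 read 5.47, against 4.22 to 4.34 on the other PAE 3X arrays, and Cyp2e1 5.34, against 4.30 to 5.75. Of the other measured hepatocyte markers, Ttr read 9.23, against 8.41 to 9.94, and Serpina1a 4.64, against 4.31 to 4.62. The hepatocyte mean of 6.17 was the highest of its group, though water array 3 had 6.86. The part of these markers in the member values was not tested. Pdk4 read 6.94 on PAE 3X array 2, against 4.37 to 4.58 on the other PAE 3X arrays. PAE 3X array 1 was also the highest of its group for Hadhb (6.98), Slc25a20 (6.86), Acot1 (7.34) and Angptl4 (6.27), and AFFB arrays 1 and 4 were the highest of theirs for Hadhb, Ehhadh, Acot1 and Angptl4.

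Lipid droplet genes outside the set did not share one pattern. G0s2, an inhibitor of the lipase Pnpla2, differed from water by 0.88 in PAE 3X (SE 0.35, adjusted p = 0.882 with limma) and by 0.09 in PAE 0.1X. Its PAE 3X arrays read 5.76, 7.25, 6.15 and 5.95 and its water arrays 5.38, 4.70, 5.85 and 5.65, overlapping through array 1. Plin4, a lipid droplet coat protein, was 1.28 higher in PAE 0.1X than in PAE 3X (SE 0.53, adjusted p = 0.823 with limma) without overlap, but its water arrays spanned 4.31 to 7.29.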
